A study of Homo sapiens with 6 samples.

Results

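The tumour suppressor p53 is a transcription factor that is stabilised by DNA damage and other stress and then switches on genes of growth arrest, cell death, repair and its own restraint. A set of 10 of its textbook target genes, measured in the human prostate cancer line PC-3, is described here. Functional p53 is known to be missing from this line. The genes were taken by symbol from the deposited table: TP53I3, TP53INP1, ZMAT3, RPS27L, GADD45A, BTG2, PLK3, FDXR, PHLDA3 and MDM2. All 10 were found among the 18780 genes listed, and 8 of them reached a mean of at least 1 TPM, a unit of transcript abundance scaled by transcript length and library total, and were tested, among 12018 genes tested in all.

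The cells, grown with serum, were kept for 24 h with 2.5 µM trans-Gnetin H (TGH), which is 3 joined resveratrol units, in 3 libraries, and with DMSO only in 3 control libraries. The title names the aim of depriving advanced prostate cancer cells of glucose with this compound. The labels name no genetic change in either group, so the loss of p53 is shared by treated and control cells. The labels do not say whether replicates were separate cultures, so p-values measure the spread between these libraries, which may be technical.

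Targets of p53 have a variety of jobs. CDKN1A (p21), GADD45A, BTG2 and PLK3 act in arrest of the cell cycle, TP53I3, TP53INP1 and PHLDA3 in oxidative stress, cell death and survival signalling, and MDM2 and ZMAT3 in feedback on p53 and in RNA binding. Most of these genes are also read by other transcription factors, so their mRNA is not specific to p53. MDM2 has an upstream promoter and a second one, inside the gene, that is the classical site of p53 action.

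TGH-treated cells had more mRNA of TP53I3, GADD45A, PHLDA3, ZMAT3 and RPS27L than control cells, by 1.197-fold to 1.65-fold on the log2(TPM + 1) scale. FDXR and BTG2 overlapped between the groups. PLK3 values were higher and MDM2 values lower in every treated library, but neither passed the test. TP53INP1 was higher in all 3 treated libraries but lay under the level needed for the test. Of the 8 tested genes 5 were called higher (limma, adjusted p under 0.05), where 28.9% of all genes tested were called higher, and 0 were called lower, where 26.3% of all genes were. At an unadjusted p under 0.05 the counts were 6 higher and 1 lower. The share of all genes at that unadjusted threshold is not given here. Under median scaling of the libraries, again at an adjusted p under 0.05, 5 of the 8 were called higher and 1 lower. Of all 12018 genes tested 3077 were then called higher and 3632 lower. The median difference of the 8 genes was 0.31 on the log2 scale, against 0.02 over all genes tested.

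Promoter windows show the sequence around the genes' start sites, and 4 are printed because they pair different sequence content with different responses. They were picked with the responses known, so no relation of sequence to response can be read from them. The RefSeq windows (build GRCh38.p14) run from 250 bases before to 50 bases after a start, and 7 of the 10 genes matched, with 12 windows. The genes TP53INP1, GADD45A and PHLDA3 were not matched. Both strands were searched for the p53 half-site decamer, for a pair of adjacent half-sites with at most 2 mismatches that keeps the central C and G of both, and for TGATGNAA, an element of the kind bound by the stress factors ATF4 and CHOP. The search for pairs was added after the search for single decamers had been seen. Matches are in capitals.
TP53I3, chr2:24084785-24085084, minus strand: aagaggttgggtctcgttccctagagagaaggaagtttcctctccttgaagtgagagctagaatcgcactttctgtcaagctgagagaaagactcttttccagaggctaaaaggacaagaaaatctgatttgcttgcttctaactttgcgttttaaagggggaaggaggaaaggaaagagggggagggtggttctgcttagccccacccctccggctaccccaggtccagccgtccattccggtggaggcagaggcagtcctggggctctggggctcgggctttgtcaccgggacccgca
RPS27L, chr15:63157428-63157727, minus strand: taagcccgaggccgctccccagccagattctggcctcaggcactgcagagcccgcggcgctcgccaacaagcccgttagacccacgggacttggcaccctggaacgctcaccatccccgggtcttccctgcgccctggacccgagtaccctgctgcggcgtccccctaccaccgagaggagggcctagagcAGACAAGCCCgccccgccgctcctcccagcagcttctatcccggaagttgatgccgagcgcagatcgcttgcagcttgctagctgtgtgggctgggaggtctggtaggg
FDXR, chr17:74872945-74873244, minus strand: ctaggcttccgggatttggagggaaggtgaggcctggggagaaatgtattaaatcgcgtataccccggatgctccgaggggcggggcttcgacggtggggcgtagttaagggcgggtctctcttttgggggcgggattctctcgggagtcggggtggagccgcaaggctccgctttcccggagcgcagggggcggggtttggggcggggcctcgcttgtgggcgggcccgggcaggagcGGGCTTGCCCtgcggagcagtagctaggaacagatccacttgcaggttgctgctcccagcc
MDM2, chr12:68808767-68809066, plus strand: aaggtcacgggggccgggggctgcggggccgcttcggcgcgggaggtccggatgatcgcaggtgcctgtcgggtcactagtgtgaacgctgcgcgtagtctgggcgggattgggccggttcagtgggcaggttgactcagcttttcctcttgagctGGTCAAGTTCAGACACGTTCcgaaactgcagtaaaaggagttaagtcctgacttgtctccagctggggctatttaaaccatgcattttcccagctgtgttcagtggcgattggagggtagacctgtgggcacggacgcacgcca

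The MDM2 window, at the start inside the gene, held a pair of half-sites, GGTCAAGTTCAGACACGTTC, 94 to 75 bases before the start, with 2 mismatches. Such a pair stood in 0.285% of all 35116 windows. It was also in the window of a neighbouring MDM2 start, and in neither window of the upstream promoter. Pairs lacking a central C or G were not searched for in any window, so looser pairs could be missed. RPS27L held 1 half-site decamer, AGACAAGCCC, and the printed one of the 2 FDXR windows held another, GGGCTTGCCC. A decamer stood in 6.63% of all windows. TP53I3, the tested gene with the largest rise, had no match in its window, and neither had the windows of ZMAT3 and BTG2. The element TGATGNAA was found once, as TGATGTAA in the PLK3 window, and in 3.62% of all windows. Windows with a match belonged to RPS27L, which rose, and to FDXR, which had no detectable difference. The others belonged to MDM2, with lower values under TGH, and PLK3, with higher values, neither of them called. A match is a string of letters in the reference sequence and was not tested as a site. Sequence outside the windows was not searched, so a gene without a match may still hold p53 sites.

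The 6 libraries came from one cell line and most of their markers were those of PC-3. KRT8, KRT18, EPCAM, VIM and CD44 were each above 100 TPM in DMSO, and HOXB13 had a mean of 29.5 TPM there. All 6 were called lower with TGH (limma, highest adjusted p = 0.00504, for VIM), for example KRT8 from 604 ± 13.9 to 424 ± 1.90 TPM (SD, n = 3 each) and HOXB13 to a mean of 19.9 TPM. The PC-3 marker list as a whole summed to 1650 to 1684 TPM in DMSO and 1253 to 1260 TPM with TGH. The part of this difference in the results on p53 target genes was not tested. The 12 markers of immune, endothelial, fibroblast and neuroendocrine cells summed to 4.44 to 4.96 TPM in DMSO and 4.51 to 4.90 TPM with TGH, most of it COL1A1, while CHGA was at 0 in all DMSO libraries. Genes listed at exactly 0 numbered 3074 and 3185 in DMSO replicates 1 and 2 and between 1342 and 1530 in the other libraries. The read depth is unknown, since TPM keeps no total. With DMSO replicate 3 as the only control the 5 genes called higher were again called, 5 of 5. That fit takes all of its spread from the treated libraries. Less RNA per cell and fewer cells of a state cannot be told apart in such bulk samples.

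The relatives of p53 that bind similar sites were low. TP73 had 0.467 ± 0.0359 TPM without and 0.516 ± 0.0186 TPM with treatment (SD, n = 3 each). TP63 had 0.0491 ± 0.0673 TPM and 0.0212 ± 0.0202 TPM. Both genes lay under the level needed for the test.

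**Figure D1:**
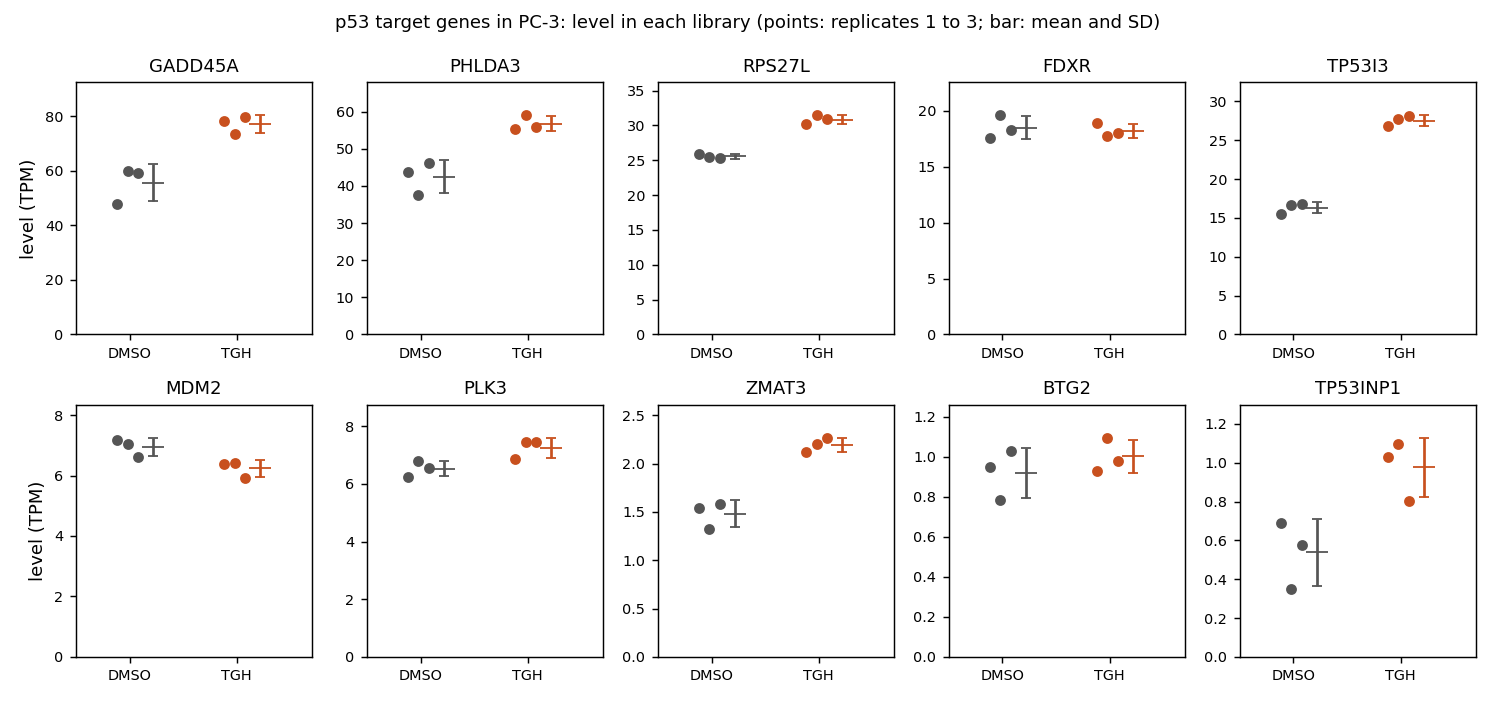
Level of each p53 target gene in TPM (vertical axis, from 0, a scale for each gene) in the 3 DMSO and the 3 TGH libraries, ordered by the DMSO mean. Points are replicates 1 to 3 from left to right, and the bar beside them gives the mean and SD. TP53I3 goes from 15.5 to 16.8 TPM in DMSO to 26.8 to 28.1 TPM with TGH, while the FDXR points overlap.

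Among the 10 genes the mean level in DMSO ran from 55.7 TPM for GADD45A to 0.539 TPM for TP53INP1. The order downwards was GADD45A, PHLDA3, RPS27L, FDXR, TP53I3, MDM2, PLK3, ZMAT3, BTG2 and TP53INP1. Neighbours in that order did not overlap in DMSO, except MDM2 and PLK3. TPM is scaled by transcript length, so these levels can be set side by side. With TGH the order changed at 2 places. TP53I3, below FDXR in every DMSO library, was above it in every TGH library, and PLK3 was above MDM2 in every TGH library. BTG2 and TP53INP1 overlapped with TGH. In RefSeq the spans of TP53I3, TP53INP1, PLK3 and MDM2 each overlap 1 other gene (FAM228B, NDUFAF6, DYNLT4 and CPM). It is not stated whether counting used the strand, so reads there may not be told apart.

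TP53I3, also called PIG3, is a quinone oxidoreductase linked to oxidative stress in p53-driven cell death, and its rise was the largest of the set on the log2(TPM + 1) scale. As a ratio of mean TPM it was 1.69, against 1.81 for the much lower TP53INP1. It was listed at 15.5, 16.6 and 16.8 TPM in DMSO replicates 1 to 3 and at 26.8, 27.7 and 28.1 TPM with TGH. Every treated library lay far above every control. The difference was 0.72 on the log2 scale (SE 0.040, 95% interval 0.63 to 0.82, limma adjusted p = 2.3e-05), a 1.65-fold rise. Of all genes tested 3.48% rose by more. CRYZ, another quinone oxidoreductase, had no call, at -0.09 (adjusted p = 0.135).

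GADD45A, a stress sensor that binds cell cycle and repair proteins, was the most abundant of the 10. Its values were 47.8, 59.9 and 59.3 TPM in DMSO and 78.4, 73.5 and 79.5 TPM with TGH. DMSO replicate 1 was lower than the other controls, and the groups did not overlap. The rise was 0.47 on the log2 scale (SE 0.087, limma adjusted p = 0.0040), or 1.39-fold. Its relative GADD45B rose too, from 30.4 ± 1.59 to 40.2 ± 0.517 TPM (SD, n = 3 each), by 0.40 (adjusted p = 0.00030). GADD45G had means of only 0.0667 TPM (DMSO) and 0.165 TPM (TGH).

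PHLDA3, a small membrane-binding protein that holds back the kinase AKT, had 43.7, 37.4 and 46.1 TPM in DMSO and 55.4, 59.0 and 55.9 TPM with TGH. The controls were more spread than the treated libraries but stayed below them. PHLDA3 rose by 0.42 on the log2 scale (SE 0.075, limma adjusted p = 0.0034), a 1.34-fold rise. In GENCODE transcripts 16% of its 50-base windows are also part of another transcript, AC096677.2, so its reads could be split. The related PHLDA1 went the other way, from 72.5 ± 3.21 to 49.98 ± 0.919 TPM (SD, n = 3 each), a fall by 0.53 (adjusted p = 5.9e-05). PHLDA2 had 0.02 (adjusted p = 0.696).

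ZMAT3, a zinc finger protein that binds RNA, was low but even across replicates. It was at 1.54, 1.32 and 1.58 TPM in DMSO and at 2.12, 2.20 and 2.27 TPM with TGH. The groups did not overlap. ZMAT3 rose by 0.37 on the log2(TPM + 1) scale (SE 0.069, limma adjusted p = 0.0041). The offset of 1 understates the change of a gene this low, and the ratio of the mean TPM values was 1.48.

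RPS27L, a ribosomal protein-like gene induced by p53, moved least among the 5 that rose. Its values were 25.9, 25.5 and 25.3 TPM in DMSO and 30.1, 31.4 and 30.9 TPM with TGH. The spread within each group was small and the gap between them was clear. RPS27L rose by 0.26 on the log2 scale (SE 0.029, limma adjusted p = 0.00041), or 1.197-fold. RPS27, the ribosomal protein that it resembles, was listed at 2394 ± 28.6 TPM in DMSO and 2590 ± 76.9 TPM under TGH (SD, n = 3 each), with a smaller rise of 0.11 (adjusted p = 0.0057) that was lost under quantile normalization. In GENCODE transcripts 0 of 9268 windows of 50 bases in RPS27L were shared with RPS27, and 1.65% with any other gene.

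TP53INP1, a nuclear protein that aids cell death and autophagy, was too low for the test. Its values were 0.690, 0.351 and 0.577 TPM in DMSO and 1.03, 1.10 and 0.804 TPM with TGH. Each treated library was above each control, with wide spread on both sides. The difference was 0.36 on the log2(TPM + 1) scale and 0.78 with an offset of 0.1 in place of 1. When all 18780 genes were fitted with no filter on low values, TP53INP1 had an adjusted p of 0.0376 (limma, 95% interval 0.11 to 0.62). TP53INP2, its relative, fell by 0.26 (adjusted p = 0.0082), a call that was lost with DMSO replicate 3 as the only control.

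**Figure D2:**
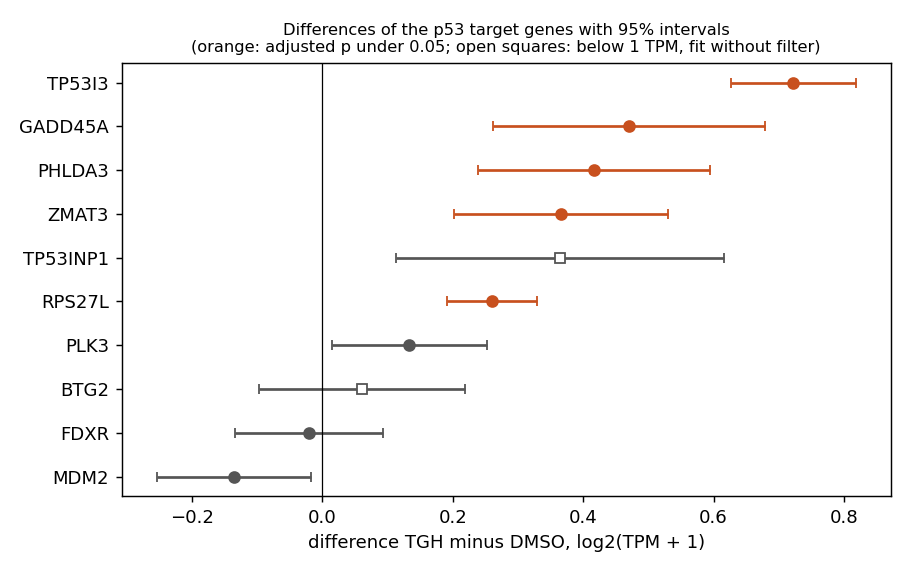
Difference between TGH and DMSO on the log2(TPM + 1) scale (horizontal axis) for each gene, with 95% intervals from limma. Orange points passed an adjusted p under 0.05, and open squares are the 2 genes under 1 TPM, from the fit without a filter. Intervals of TP53I3, GADD45A, PHLDA3, ZMAT3 and RPS27L lie above 0, and that of FDXR spans 0.

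MDM2, the ubiquitin ligase that degrades p53 and is itself a p53 target, was lower with TGH in every library. It was at 7.19, 7.06 and 6.61 TPM in DMSO and at 6.37, 6.42 and 5.93 TPM with TGH. The groups did not overlap, but the lowest control and the highest treated library lay close together. The difference was -0.14 on the log2 scale (95% interval -0.25 to -0.02, limma adjusted p = 0.0546), which missed the threshold. It passed under 5 of 17 alternative settings, among them the 3 ways of rescaling the libraries, and had -0.07 (adjusted p = 0.386) with DMSO replicate 3 as the only control. MDM4, the partner of MDM2 in restraining p53, was at 2.36 ± 0.145 TPM and 2.57 ± 0.145 TPM (SD, n = 3 each), with a difference of 0.09 (adjusted p = 0.275).

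PLK3, a stress-activated kinase of the polo family, had 6.25, 6.78 and 6.55 TPM in DMSO and 6.86, 7.47 and 7.45 TPM with TGH. The treated libraries were all above the controls, by a small margin. The difference was 0.13 on the log2 scale (95% interval 0.01 to 0.25, limma adjusted p = 0.0582), and it passed under 2 of 17 alternative settings. Its relatives of cell division and centriole copying fell: PLK1 from 71.46 ± 1.003 to 29.6 ± 0.368 TPM (SD, n = 3 each, adjusted p = 6.3e-07), and PLK4 by 0.37 (adjusted p = 0.00036). PLK2, which is both a relative and a p53 target, fell by 0.36 (adjusted p = 0.00038).

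FDXR, the mitochondrial reductase that passes electrons to ferredoxin, had 17.6, 19.6 and 18.3 TPM in DMSO and 18.9, 17.7 and 18.0 TPM with TGH. The groups overlapped. The difference was -0.02 on the log2 scale (95% interval -0.13 to 0.09, limma adjusted p = 0.731). Of the ferredoxins it serves, FDX1 had -0.22 (adjusted p = 0.103), and FDX1L had 0.17 (adjusted p = 0.0257), a call lost under 4 of 17 alternative settings.

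BTG2, an antiproliferative protein that speeds mRNA decay, was near 1 TPM in all libraries and was not tested. It was at 0.9496, 0.783 and 1.03 TPM in DMSO and at 0.930, 1.09 and 0.977 TPM with TGH. The groups overlapped. With no filter the difference was 0.06 on the log2 scale (95% interval -0.10 to 0.22, limma adjusted p = 0.513). In its family BTG1 and BTG3 had no call (adjusted p = 0.355 and 0.155), while TOB2 fell by 0.40 (adjusted p = 0.0016).

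Over all 24 relatives of the 10 genes, 20 were tested, with 4 called higher and 7 lower and a median difference of -0.07. That is 20% higher against 28.9% of all genes tested, and 35% lower against 26.3%. Under median scaling 2 relatives were higher and 8 lower, while 3077 and 3632 of all 12018 genes tested were. Calls in either direction were made for 55.2% of all genes tested, so single calls are common in these data. The groups did not overlap in 7 of the 8 tested p53 targets, where 64.4% of all genes tested did not. All treated libraries were above all controls in 6 of them (33.6% of all genes) and below in 1, MDM2 (30.8% of all genes).

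**Figure D3:**
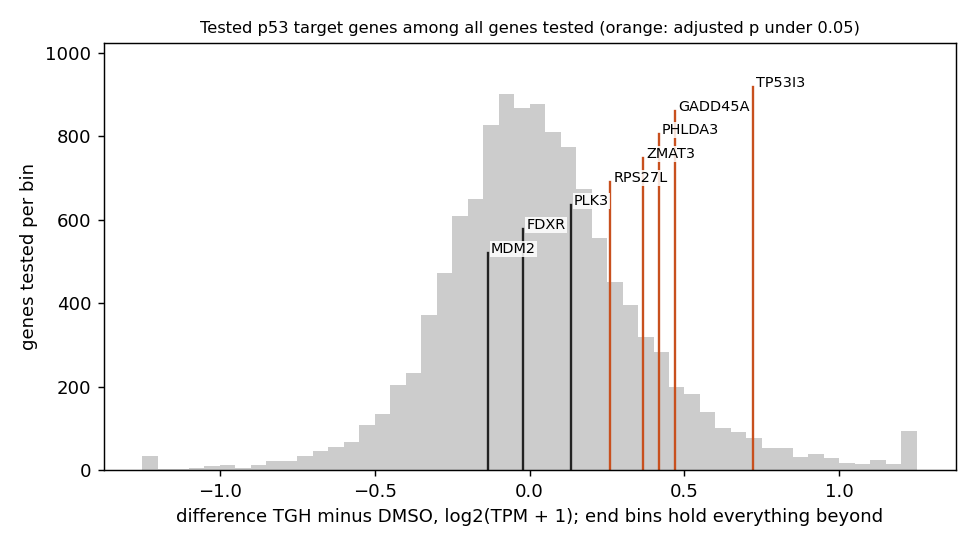
Histogram of the difference between TGH and DMSO on the log2(TPM + 1) scale (horizontal axis) over the 12018 genes tested (vertical axis, genes per bin), with lines at the 8 tested p53 targets. Line heights have no meaning. TP53I3 stands in the upper tail, with 3.48% of genes beyond it, and MDM2, FDXR and PLK3 stand near the middle.

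The wider p53 pathway moved in both directions. Of 48 further target genes 42 were tested, with 11 called higher, 10 lower and 21 not called, so that 26.2% were higher against 28.9% of all genes, and 23.8% lower against 26.3%. Under median scaling 10 were higher and 14 lower, while 3077 and 3632 of all 12018 genes tested were. Without rescaling the median difference was -0.06, and the shares are close to those of all genes.

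Among the risers were GDF15, a secreted stress cytokine, SESN2, which restrains mTORC1, and CDKN1A, the CDK inhibitor p21. CDKN1A was at 17.8, 17.9 and 15.8 TPM in DMSO and at 34.5, 34.1 and 33.8 TPM with TGH. It rose by 0.95 on the log2 scale (SE 0.050, limma adjusted p = 2.0e-05), more than any of the 10 genes above. GDF15 had 17.1, 15.3 and 21.3 TPM in DMSO and 52.8, 52.4 and 50.4 TPM with TGH, a rise by 1.497 (adjusted p = 6.5e-05). SESN2 went from 4.57 ± 0.245 to 9.99 ± 0.710 TPM (SD, n = 3 each), by 0.98 (adjusted p = 3.7e-05), whereas SESN1, its relative, had -0.05 (adjusted p = 0.599). KIAA0247, now named SUSD6, rose by 0.38 (adjusted p = 0.00036). The other 7 genes called higher lay between 0.15 and 0.31.

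The largest falls in this list were those of CMBL, PLK2, APAF1 and DRAM1. CMBL, a hydrolase, went from 18.0 ± 0.490 to 12.8 ± 0.426 TPM (SD, n = 3 each), by -0.46 (limma adjusted p = 0.00012). APAF1, the scaffold of the apoptosome, had 2.70, 2.37 and 2.16 TPM in DMSO and 1.68, 1.74 and 1.600 TPM with TGH. It fell by 0.35 (adjusted p = 0.0081), a call that was lost when DMSO replicate 3, the lowest of the controls, was the only one. DRAM1, a lysosomal protein of autophagy, fell by 0.33 (adjusted p = 0.0066).

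Further genes of the wider list act in cell death and DNA repair. BAX, which opens the mitochondrial membrane, had 0.04 (limma adjusted p = 0.647), and BBC3 (PUMA) had 0.37 (adjusted p = 0.0621). BBC3 was low, with means of 0.861 TPM in DMSO and 1.40 TPM with TGH. Its groups did not overlap, and it was called higher under 4 of 17 alternative settings. The death receptors FAS and TNFRSF10B had -0.08 and -0.07 (adjusted p = 0.506 and 0.102). PMAIP1 (NOXA), another death gene, rose by 0.22 (adjusted p = 0.0284), a call lost under 7 of 17 alternative settings. In nucleotide excision repair XPC rose by 0.31 (adjusted p = 0.0032), while DDB2 fell by 0.28 (adjusted p = 0.0011). POLH, a polymerase that copies past lesions, fell by 0.31 (adjusted p = 0.0034). The genes of this paragraph and SESN1 were named after their values were seen.

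**Figure D4:**
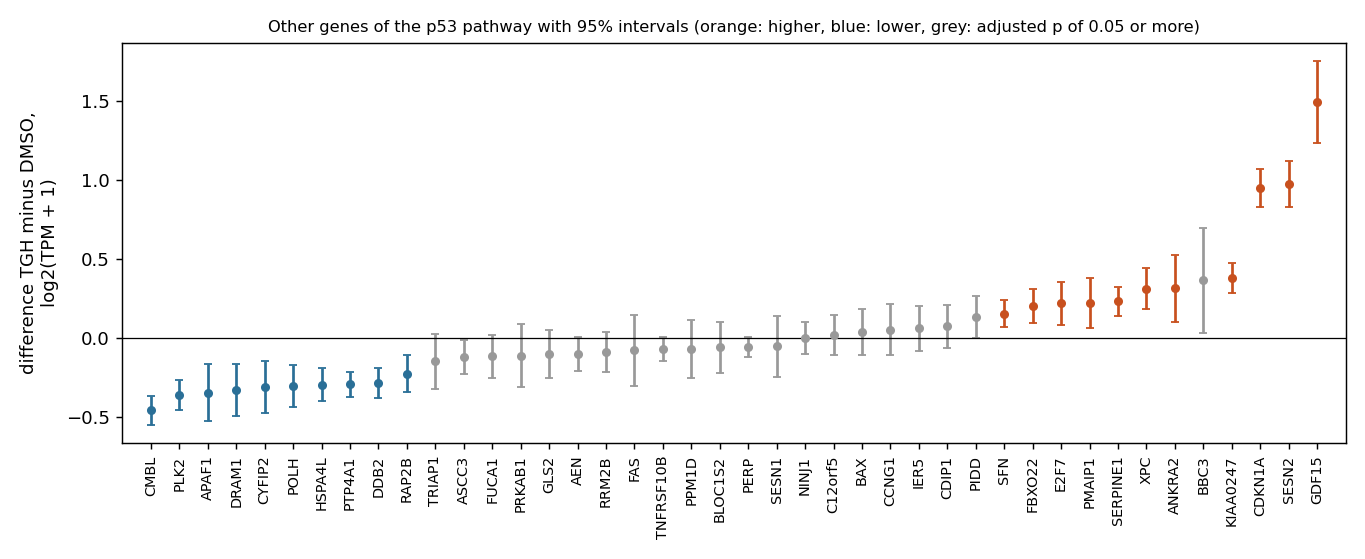
Difference between TGH and DMSO on the log2(TPM + 1) scale (vertical axis) for the 42 tested genes of the wider p53 pathway (horizontal axis, sorted), with 95% intervals from limma. Orange genes were called higher, blue ones lower, and grey ones had an adjusted p of 0.05 or more. GDF15, SESN2 and CDKN1A stand above the rest, and 10 genes from CMBL to RAP2B are lower.

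The p53 family and its regulators formed a list of 19 genes, of which 16 were tested. Of these 6 (37.5%) were called lower, against 26.3% of all genes, and 2 (12.5%) higher, against 28.9%. The median difference was -0.09. The lower count was between 4 and 7 over the 17 alternative settings, and it was 4 without DMSO replicate 2, without DMSO replicate 3, without any single TGH replicate, or with no filter on low values. USP7, the deubiquitinase of MDM2 and p53, fell by 0.28 (limma adjusted p = 0.0028), and CHEK1, a checkpoint kinase, by 0.23 (adjusted p = 0.0057). PRKDC, the DNA-dependent protein kinase, fell by 0.20 (adjusted p = 0.00050), and CREBBP, a p53 acetyltransferase, by 0.23 (adjusted p = 0.0036). EP300 and KAT5, also acetyltransferases, were called lower at -0.15 and -0.12, calls lost under 7 and 9 of 17 alternative settings. ATM, the kinase that signals double-strand breaks, rose from 4.57 ± 0.214 to 5.80 ± 0.0102 TPM (SD, n = 3 each), by 0.29 (adjusted p = 0.0020). RFWD2 (COP1), a ubiquitin ligase of p53, rose by 0.46 (adjusted p = 0.0023).

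The genes whose pattern over the 6 libraries was most like that of TP53I3 were ARHGEF2, CORO1B and KCNAB2. Likeness was the root mean square difference of log2 values after each gene's mean was subtracted, and it was 0.0207, 0.0286 and 0.0299. ARHGEF2 went from 11.04 ± 0.714 to 19.1 ± 0.385 TPM (SD, n = 3 each). As TP53I3 differs mainly between the groups, likeness here is mostly a like difference between TGH and DMSO, and it is given as a description.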

How the data were processed

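RNA of PC-3 cells was sequenced in 6 libraries, 3 with TGH and 3 with DMSO. Per the labels' protocols, ribosomal RNA was removed from total RNA and a strand-keeping library kit was used. The authors deposited the values as log2(TPM + 1) for 18780 gene symbols, on genome build hg19 per the submitters' processing notes. Aligner, quantifier and annotation were not given in the sources used here. Depth is unknown, as TPM holds no read total, and the listed TPM sum to between 502380 and 518870 per library.

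The deposited log2 values of the 12018 genes that averaged 1 TPM or more were compared with limma 3.58.1 in R 4.3.3 (moderated variances with a trend), two-sided, with Benjamini-Hochberg adjustment over these genes and 0.05 as the threshold of the adjusted p. The step was tested on simulated data in which only a small part of the genes differed. Here 55.2% of genes tested were called, and that test did not cover calls at such a share. Named are the 10 genes, their relatives and p53 regulators, CDKN1A, the 4 largest rises and falls of the wider target list, and the 3 genes most like TP53I3. Other genes of that list are said in the text to be named after their values were seen. Genes and lists were chosen with earlier results of these data known. Alternatives were other offsets, filters, scalings and variance models, the replicate number as a block, leaving out each library, and DMSO replicate 3 as the only control. Shared sequence was checked over 50-base windows of GENCODE v29 transcripts. Protein sequences were not used here, and some genes of the fixed lists are not reported here. Figures were drawn with matplotlib 3.10.9.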

Additional observations from a re-analysis of the deposited data

How the results depend on the processing

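The 5 p53 targets called higher were called again under 16 of 17 alternatives, and under the filter at a mean of 5 TPM 4 of them were, because ZMAT3 was then not among the genes tested. The number called higher lay between 5 and 6 when each library was left out in turn, while 2840 to 3548 of all genes tested were. PLK3 was the sixth without TGH replicate 1, where 2862 of 11983 genes tested were called higher. The number called lower went from 0 to 1 under median scaling, quantile normalization, rescaling to the same listed total and variances without trend. In each case it was MDM2. Over all 12018 genes tested, lower calls went from 3156 to 3632, 3630, 3372 and 3108 in that order. With each library left out in turn, 0 to 1 targets were called lower. MDM2 was called without DMSO replicate 3 (-0.17, limma adjusted p = 0.0415), where 2864 of 12031 genes tested were called lower. The cause was not tested. For TP53INP1 the difference was 0.11 with an offset of 5. Counts over all genes and over the wider target list stayed within 1.5 times their values under every alternative.

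Same-numbered libraries had correlations of deviations of 0.00877, 0.0544 and 0.228, so the numbers were not taken to pair them, and not every library correlated best with its own number. With the replicate number as a block 5 targets were higher and 0 lower, 12 and 10 of the wider list, and 3273 and 2958 of all genes. There were 3 libraries a group, and depth is unknown. The differences of MDM2 and PLK3 (SE 0.050 each) lay close to the threshold of a call. Some smaller differences with less spread were called, such as RPS27 at 0.11 (SE 0.023) and EPCAM at -0.126 (SE 0.025).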
